A study of Mus musculus with 2 samples.

Results

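The 9 genes described here make, move, bind or answer to thyroid hormone in the postnatal mouse spinal cord. They were Dio2, Dio3, Slco1c1, Crym, Thra, Thrb, Rxra, Klf9 and Hr, taken by gene name from the deposited table of 51826 genes, and 35 of the 128622 deposited transcripts belong to them. RNA was taken from whole spinal cord, at postnatal day 7, of mice on the C57BL/6 background. One library was made from wild type mice (WT), and 1 from mice of the genotype Olig1-Cre;Secisbp2l-floxed(Ex3), called cKO, in which Cre recombinase named for the gene Olig1 meets a Secisbp2l allele floxed at exon 3. Olig1 is active mainly in the oligodendrocyte lineage and in progenitors of motor neurons, whereas the RNA is of all cells of the cord. The labels do not say whether the WT mice carried either allele, nor how many animals went into a library.

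Thyroid hormone reaches the brain and cord mainly as the prohormone T4. Deiodinases are selenoproteins that remove iodine from it: DIO2 makes the active form T3, and DIO3 inactivates both forms. T3 binds the nuclear receptors THRA and THRB, which act on DNA with a retinoid X receptor such as RXRA, and it promotes the differentiation of oligodendrocyte precursors and the expression of myelin genes. The protein made from Secisbp2l is related to SECISBP2, which recognises the selenocysteine insertion element of selenoprotein mRNAs, and the study put forward Dio2 as a route from Secisbp2l to myelination.

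None of the 9 mRNAs differed by 1.5-fold or more between the libraries together with a counting interval clear of equality. Of all measured genes 5.88% did so. Dio2 stood at 7.70 TPM (transcript abundance corrected for length) in WT and 8.51 TPM in cKO. Thra stood far above the others in both, at 616 and 625 TPM, and Dio3 was close to the limit of detection. Hr and Klf9, which T3 induces in brain, were lower in cKO by 1.26-fold and 1.14-fold, and Rxra was higher by 1.17-fold. The intervals of these 3 left out equality, as did those of 40.3% of measured genes. On a wider list of brain genes that respond to T3, 11 of the 17 measured lay above equality and 6 below. Their median log2 ratio was 0.06, against 0.01 for all measured genes. The list does not say which way T3 moves each gene. In the same libraries all 6 myelin genes listed as targets of the hormone were lower, Mag by 1.56-fold and Mobp by 2.37-fold. These 6 genes are also markers of mature oligodendrocytes, and an earlier reading of these data had shown them lower before they were listed.

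With 1 library per group no test of any difference was possible, and no p-values are given. Ratios are of counts scaled to library size (CPM, per 1000000 counts), and their 95% exact (Clopper-Pearson) intervals cover counting error only, not the spread between animals. A gene counted as measured had a mean of at least 1 CPM, and the size rule asked for a 1.5-fold difference with equality outside the interval. Of 15917 measured genes 5.88% met this rule, 2.46% higher and 3.42% lower in cKO, while the interval alone left out equality for 40.3%, 21.9% higher and 18.4% lower. The median log2 ratio of measured genes was 0.01, with quartiles of -0.14 and 0.15. Levels are of whole-cord RNA, in which fewer cells of a type and less RNA per cell cannot be told apart.

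Estimated counts totalled 42875143 for WT and 55179026 for cKO. Hox genes of the cord such as Hoxc8 (84.6 and 78.1 TPM) were present, and the forebrain gene Emx1 had 0 counts in both. Of the 4 measured Hox markers 1, Hoxd9, was higher in cKO by the size rule (log2 ratio 0.73), against 2.46% of measured genes. The targeted gene Secisbp2l went from 588 to 466 CPM (log2 ratio -0.34), a level over the whole gene that does not isolate exon 3 and so does not check the deletion. Xist had 35182 counts in WT and 13 in cKO, while 4 Y-linked genes had 0 in WT and 1081 to 4280 in cKO. The libraries therefore differ in sex-linked expression as well as in genotype. For no gene, on a sex chromosome or not, can sex and genotype be told apart. None of the 9 genes lies on a sex chromosome, but whether sex bears on their ratios was not tested.

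The codon that makes the deiodinases selenoproteins is shown first, without the insertion element that SECISBP2 recognises in their mRNAs. In these mRNAs the annotation marks the triplet TGA, otherwise a stop, as a selenocysteine codon at the positions shown. The sequences below are coding strand from GENCODE M21 transcripts (GRCm38), with that codon in capitals. The Dio2 windows lie at chr12:90729793-90729855 and chr12:90729415-90729456 on the minus strand, in the last of 2 exons, and the Dio3 window at chr12:110279709-110279771 on the plus strand, in its single exon.
Dio2 codon 130: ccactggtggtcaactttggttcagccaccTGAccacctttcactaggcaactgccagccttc
Dio2 codon 263: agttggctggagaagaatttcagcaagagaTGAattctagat
Dio3 codon 170: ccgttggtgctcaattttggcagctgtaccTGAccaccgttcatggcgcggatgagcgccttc
Aligned on the codon without gaps, the windows around Dio2 codon 130 and Dio3 codon 170 were identical at 41 of 63 bases (65.1%). Dio2 codon 263 lies near the end of a reading frame of 266 codons, and whether it is read as selenocysteine or as a stop is not shown by these data.

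Dio2 (ENSMUSG00000007682), the activating deiodinase, spans chr12:90724552-90738438 on the minus strand and had 1 transcript in the files, Dio2-201. Its estimated counts were 860 in WT and 1192 in cKO, or 20.05 and 21.6 CPM. The cKO library was thus slightly above the WT library. The log2 ratio was 0.11 (interval -0.07 to 0.29), which in linear terms runs from 0.951 to 1.22 and contains equality. A difference of 1.5-fold in either direction lay outside that interval. These are mRNA levels and do not measure how much selenocysteine is inserted or how much enzyme is made. In the cord Dio2 is known mainly from astrocytes, whose markers were close between the libraries. The 10 astrocyte markers summed to 3766 TPM in WT and 3785 TPM in cKO. Of the 10, 0 met the size rule, against 5.88% of measured genes, and 5 had log2 ratios above 0 and 5 below. The most abundant were Gfap (-0.07), Aldoc (0.12) and Aqp4 (-0.14). Whether astrocyte numbers bear on the Dio2 value was not tested.

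For Dio3 (ENSMUSG00000075707), the inactivating deiodinase, 17 counts were assigned in WT and 26 in cKO, about 8.5 and 13 sequenced fragments. Its level was 0.595 TPM in WT and 0.676 TPM in cKO, and its mean of 0.434 CPM left it below the limit for a measured gene. The log2 ratio of 0.25 had an interval from -1.11 to 1.69, so that neither a 1.5-fold gain nor a 1.5-fold loss could be detected at this depth. Dio3-202, the transcript whose annotated frame holds the selenocysteine codon, was given 0 counts in WT but 6 in cKO, and the remaining counts were assigned to Dio3-201, whose annotated frame of 131 codons starts after it. Both lie on the same exon. Dio2 exceeded Dio3 by 12.9-fold in WT and 12.6-fold in cKO on the TPM scale. Dio1, the deiodinase of liver and kidney, was at 2 counts in WT against 0 in cKO. The antisense RNA Dio3os, found by its identifier ENSMUSG00000113581, had 7 and 0.

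**Figure D1:**
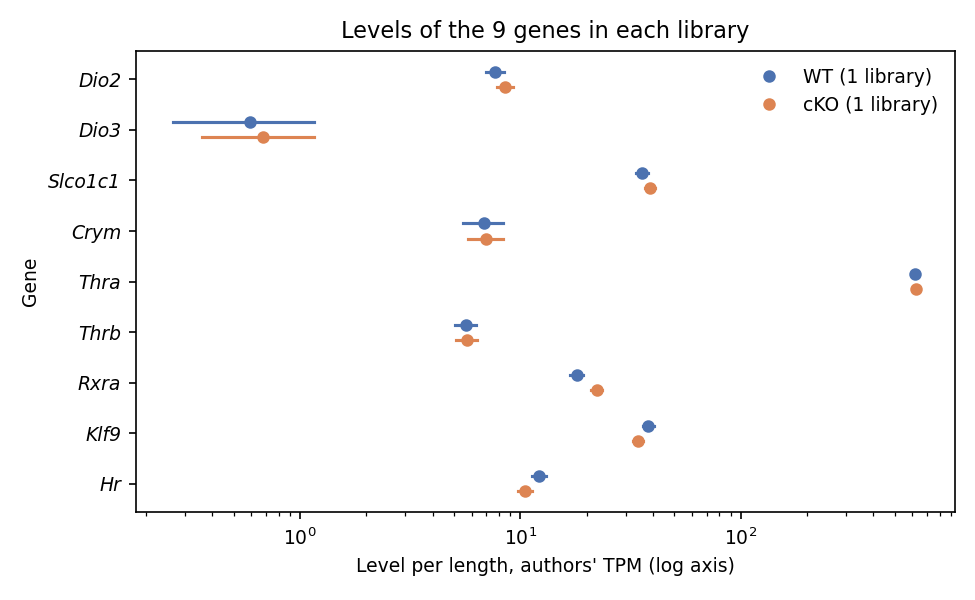
Level of each gene in TPM (log axis) in the WT and the cKO library, 1 library each, with bars for the 95% exact Poisson interval of the counts carried to the TPM scale. Thra lies above 600 TPM and Dio3 below 1 TPM in both libraries, and the WT and cKO points of each gene lie close together.

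Slco1c1 (ENSMUSG00000030235; chr6:141524368-141570177, plus strand) encodes OATP1C1, a transporter that carries T4 across the endothelium of brain vessels and into astrocytes. It had 1840 counts in WT and 2573 in cKO, at 35.7 and 38.8 TPM. The log2 ratio was 0.12 (interval -0.0017 to 0.25), a difference of 1.09-fold whose interval just reached equality. Summed markers of endothelium were 371 TPM in WT and 369 TPM in cKO. Of those 10 markers 1, Ly6c1, was lower by the size rule (log2 ratio -0.63), against 3.42% of measured genes. The part of vessel content in the Slco1c1 value was not tested.

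The counts of Slco1c1 were divided between several transcripts. By the authors' estimate most belonged to Slco1c1-202, annotated as a target of nonsense-mediated decay, which held 76.8% of the gene's total in the WT library (74.0% to 79.5% by a 95% Wilson interval) and 75.01% in the cKO library (72.6% to 77.3%). This transcript differs from Slco1c1-201, which encodes the full protein of 715 residues, by a later start of 1 exon and an earlier end of the last. The 41 bases that Slco1c1-202 lacks at that exon start leave a remainder of 2 when divided by 3 and so change the reading frame. They are printed in capitals with the next 20 bases, at chr6:141559741-141559801 on the plus strand, because they and the differing 3' end are what tells the transcripts apart.
Slco1c1-201: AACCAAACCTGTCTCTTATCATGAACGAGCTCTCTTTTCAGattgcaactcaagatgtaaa

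Slco1c1-201 held 7.45% of the counts in WT (137 counts) and 21.6% in cKO (555 counts). Its log2 ratio was 1.66 (interval 1.27 to 2.06). The opposite held for Slco1c1-206, of 666 residues, with 127 counts in WT and 0 in cKO, and for Slco1c1-203, of 544 residues, with 110 and 34. With the 0 set to a floor of 6 counts Slco1c1-206 was 27.2-fold lower, and its interval reached up to a log2 ratio of -4.43. Summed over these 3 coding transcripts the share was 20.3% in WT (17.9% to 23.0%) and 22.9% in cKO (20.7% to 25.3%), so the sum differed far less than its parts. The summed counts were higher in cKO, with a log2 ratio of 0.29 (interval 0.02 to 0.57) that left out equality. Such divisions moved often in these libraries. Among 7157 measured genes with at least 2 transcripts of 10% or more, 43.7% had a transcript whose share moved by 10 points or more with Wilson intervals apart, a rule chosen after the values were seen. Of the 9 genes 3 could be judged by it, and Slco1c1 and Thrb met it while Hr did not. Of 32757 measured transcripts, 26.1% met the size rule.

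Crym (ENSMUSG00000030905; chr7:120186380-120202111, minus strand) encodes mu-crystallin, which binds T3 in the cytosol. It had 185 counts in WT and 232 in cKO, at 6.82 and 6.97 TPM. The libraries were level, with a log2 ratio of -0.04 (interval -0.44 to 0.37). Crym-201, the coding transcript, held 95.1% and 99.6% of the counts, and the remaining 9 counts in WT and 1 in cKO went to a transcript with a retained intron.

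The 2 receptor genes lay far apart in level. Thra (ENSMUSG00000058756; chr11:98740638-98769006, plus strand) had 27746 counts in WT and 35160 in cKO, and 99.0% of measured genes had a lower TPM in either library. Its log2 ratio was -0.02 (interval -0.05 to 0.01), the narrowest interval of the 9. Thrb (ENSMUSG00000021779; chr14:17660960-18038088, plus strand) had 608 and 692 counts, at 5.64 TPM in WT and 5.70 TPM in cKO. Thra exceeded Thrb by 109-fold in WT and 110-fold in cKO per length. The log2 ratio of Thrb on counts was -0.18 (interval -0.40 to 0.05), while the ratio of its TPM values was 0.02 on the log2 scale, of the opposite sign.

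Thra gives rise to unlike proteins. In the alpha1 form the ligand-binding domain is complete, while the alpha2 form has another C terminus and does not bind T3. In the annotation Thra-202 encodes 410 residues, the alpha1 form, and Thra-201 encodes 492 residues, the alpha2 form. Their reading frames are the same for 370 codons, up to base 98764405 of chromosome 11. Thra-202 then reads on at 98764406 in the same exon for 40 codons, and Thra-201 joins to an exon that starts at 98768157 and adds 122 codons. The last 30 shared bases are printed in lower case and the first 30 that differ in capitals, since this junction separates the receptor that binds hormone from the one that does not.
Thra-202: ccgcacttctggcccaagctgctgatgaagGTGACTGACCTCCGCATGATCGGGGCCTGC
Thra-201: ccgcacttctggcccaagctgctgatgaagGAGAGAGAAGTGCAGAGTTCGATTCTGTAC

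The form that does not bind T3 made up most of the Thra mRNA. Thra-201 stood at 548 TPM in WT and 547 TPM in cKO, and Thra-202 at 35.2 and 42.0 TPM. The ratio of Thra-201 to Thra-202 was 15.6 in WT and 13.0 in cKO. Thra-202 was slightly higher in cKO, with a log2 ratio of 0.22 (interval 0.08 to 0.35), and Thra-201 had one of -0.04 (interval -0.07 to -0.0046). The share of Thra-202 went from 5.46% of the counts (5.09% to 5.85%) to 6.44% (6.08% to 6.81%), so that the Wilson intervals did not overlap. For comparison, 48.5% of measured transcripts had an interval clear of equality, 25.4% higher and 23.1% lower. The last exon of Thra-201 overlaps Nr1d1, the gene of a clock receptor on the opposite strand, over 263 bases from 98768157 to 98768419. Nr1d1 itself had 1382 and 1985 counts (log2 ratio 0.16), and because the strand setting of the counting is not given in the sources used here, reads of the overlap cannot be told apart. The 2 transcripts share most exons, and their division is the authors' estimate.

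For Thrb, the counts were split between Thrb-201 and Thrb-203, which encode the same 461 residues (the beta1 form) and in the files end at different bases, 18036559 and 18038088. Thrb-201 held 19.6% of the counts in WT (15.5% to 24.4%) and 55.1% in cKO (49.8% to 60.2%). Thrb-203 held 80.4% and 44.7%. The counts assigned to the 2 moved in opposite directions, with log2 ratios of 1.32 (interval 0.89 to 1.76) and -1.02 (interval -1.32 to -0.73), while their sum had one of -0.18. This division is the authors' estimate, and the intervals do not cover its error. A share that moved by 10 points or more was found for 43.7% of measured genes with at least 2 transcripts of 10% or more. Thrb-202, the beta2 form of pituitary and retina, was at 0 counts in WT against 2 in cKO. The ends of the deposited Thrb transcripts differ from those of the annotation used here.

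Rxra (ENSMUSG00000015846; chr2:27676440-27762957, plus strand), a partner of both receptors, had 1667 counts in WT and 2499 in cKO, at 18.02 and 22.2 TPM. It was the member with the highest ratio among those measured, with a log2 ratio of 0.22 (interval 0.09 to 0.35). Rxra-201 carried 98.8% of its counts in WT and 99.2% in cKO. The other retinoid X receptors had ratios on the other side of 0, with intervals that contained it: Rxrb was at 50.8 and 50.2 TPM (log2 ratio -0.11, interval -0.22 to 0.0089) and Rxrg at 10.1 and 9.82 TPM (-0.08, interval -0.36 to 0.20). Rxrb was thus the most abundant of the 3 in both libraries.

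**Figure D2:**
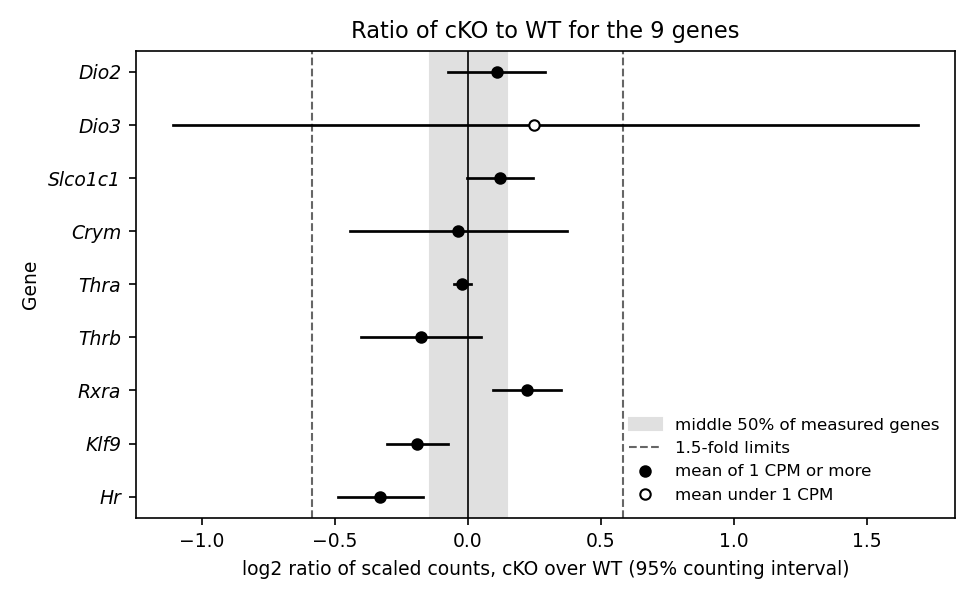
Log2 ratio of scaled counts, cKO over WT, for each gene, with its 95% exact counting interval; the grey band holds the middle 50% of measured genes, the dashed lines mark 1.5-fold, and the open point is Dio3, below 1 CPM. The intervals of the 8 measured genes lie inside the 1.5-fold limits, and those of Rxra, Klf9 and Hr leave out 0.

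Klf9 and Hr are direct targets of the T3-bound receptors in brain. Klf9 (ENSMUSG00000033863; chr19:23141226-23166911, plus strand) encodes a zinc finger transcription factor, and had 2379 counts in WT and 2682 in cKO, at 38.0 and 34.1 TPM. The log2 ratio was -0.19 (interval -0.30 to -0.08). Hr (ENSMUSG00000022096; chr14:70552212-70573548, plus strand) encodes hairless, a corepressor that binds the receptors, and had 1296 and 1327 counts, at 12.2 and 10.5 TPM. Its log2 ratio of -0.33 (interval -0.49 to -0.17) was the lowest of the 9. Both were lower in cKO by less than 1.5-fold. The transcripts of Hr moved in parallel, since Hr-203 (1182 residues) held 86.7% of the counts in each library and Hr-205 (1211 residues) held 13.3% and 12.8%. For 3 of the 8 measured members the interval left out equality, 1 higher and 2 lower, against 40.3% of all measured genes (21.9% higher, 18.4% lower), and 4 of the 8 lay outside the quartiles of all genes. Their median log2 ratio was -0.03.

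By level per length the order was Thra, Klf9, Slco1c1, Rxra, Hr, Dio2, Crym, Thrb and Dio3 in WT. In cKO Slco1c1 stood above Klf9 and the order was otherwise the same. Counting intervals of neighbours overlapped for Klf9 and Slco1c1 in WT only, and for Dio2 with Crym and Crym with Thrb in both libraries. Dio2 at 7.70 TPM in WT lay above 27.8% of measured genes, and Klf9 at 38.0 TPM above 69.3%.

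**Figure D3:**
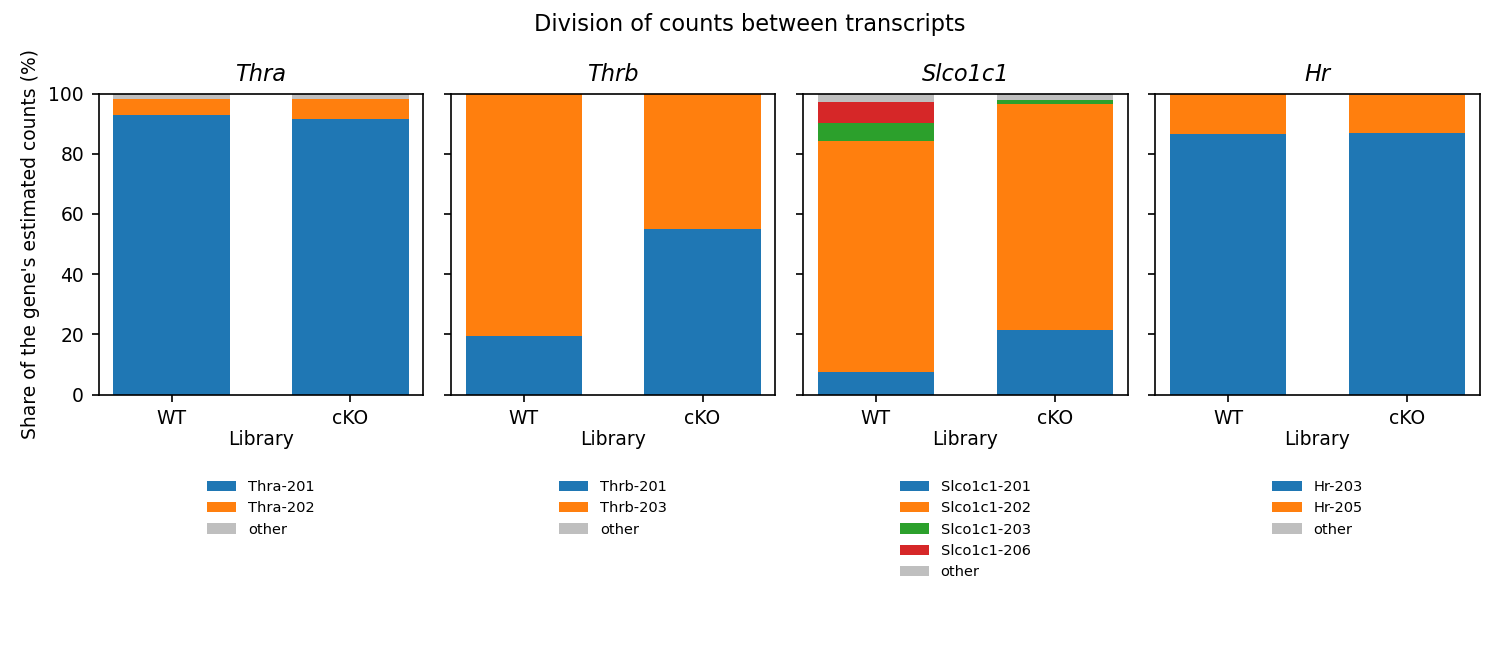
Share of each gene's estimated counts held by its transcripts in the WT and the cKO library, as stacked bars from 0 to 100%, with transcripts under 5% in both libraries pooled as other. The Thra and Hr bars are alike, Thrb-201 goes from 19.6% to 55.1%, and Slco1c1-202 holds 76.8% and 75.01%.

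The wider pathway was read from lists written from textbook knowledge, with an earlier report on these data known. Of 15 genes that regulate deiodinases or insert selenocysteine, 13 were measured and 0 met the size rule, against 5.88% of measured genes. Their median log2 ratio was 0.0010. The most abundant, Secisbp2l (log2 ratio -0.34), Wsb1 (-0.27) and March6 (0.15), are the targeted gene and 2 components of ubiquitin ligases that mark DIO2 for degradation. Eefsec, the elongation factor for selenocysteine, had the highest ratio of the list at 0.37. Of 16 genes of transport and binding, 9 were measured and 0 met the rule, with a median of 0.06. Slc7a5 and Slc3a2, which together form an amino acid transporter that also carries thyroid hormone, had ratios of 0.14 and 0.09. Ttr, the carrier made by the choroid plexus, had 2 counts in WT and 0 in cKO.

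Receptor partners and coregulators were all measured, 19 of 19, with 14 above 0. Their median was 0.10, against 0.01 for all measured genes. Of these, 1 met the size rule as higher, against 2.46% of measured genes. That gene, Med1, the Mediator subunit through which nuclear receptors contact the transcription machinery, went from 27.8 to 41.7 CPM (log2 ratio 0.59, interval 0.44 to 0.73), at the limit of the rule. On the authors' TPM it went from 15.8 to 18.6, a log2 ratio of 0.24, short of the limit. Hdac3, the deacetylase of the NCoR corepressor complex, had 0.44, and Ncor1, a corepressor of that complex, 0.15.

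Of 20 genes that respond to T3 in brain, 17 were measured, 0 were higher and 1 was lower by the rule, against 2.46% and 3.42% of measured genes, and the median was 0.06. The lower gene was Cbr2, a carbonyl reductase, on 158 and 111 counts (log2 ratio -0.87, interval -1.39 to -0.36). The 3 most abundant over both libraries were Nefh, a neurofilament gene (0.21), Kcnj10, a potassium channel of glia (-0.16), and Reln, a secreted protein of neurons (0.28). In WT alone Me1, for malic enzyme (log2 ratio -0.04), stood above Reln, at 101 against 96.5 TPM. The 8 neuron markers all lay above 0, with a median of 0.22 and sums of 3398 TPM in WT and 4028 TPM in cKO, and their part in the ratios of Nefh and Reln was not tested.

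The myelin list stood on the other side. All 6 genes met the size rule as lower, against 3.42% of measured genes, with a median log2 ratio of -0.91. Mbp, for myelin basic protein, went from 5277 to 2854 CPM (-0.89, interval -0.90 to -0.87). Mobp had -1.24, Mog -0.93, Cnp -0.75 and Mag -0.65. These genes are also markers of mature oligodendrocytes, whose 10 markers, with Opalin, Fa2h, Ugt8a and Aspa beside these 6, were all lower by the rule and summed to 14987 TPM in WT and 7746 TPM in cKO, and an earlier reading of these data had shown them lower before the list was written. Of the 8 precursor markers, 2 were lower by the rule, Gpr17 (-0.64) and Sox10 (-0.59). The 8 summed to 890 TPM in WT and 705 TPM in cKO. Gpr17, Sox10 and Olig2 were at 198, 186 and 131 TPM in WT and 131, 126 and 93.2 TPM in cKO. The log2 ratios of all 8 lay below 0, with Pdgfra (-0.07, 68.5 and 68.4 TPM) and Ptprz1 (-0.0045, 107 and 109 TPM) nearest to it. Cspg4 was at 15.8 TPM in WT and 16.0 TPM in cKO, C1ql1 at 62.2 and 58.7 TPM, and Lhfpl3 at 120 and 102 TPM. The fall of the sum thus lay mainly in Gpr17, Sox10 and Olig2. Whether these 3 stand for precursors or for later cells of the lineage was not tested. Of the 6 meningeal markers 2 were lower by the rule, Igf2 (-1.87) and Ogn (-0.60), and the sum of the 6 was 1441 TPM in WT and 1159 TPM in cKO, with Igf2 alone at 243 and 79.4 TPM. The difference between the myelin genes and the 9 members was not tested.

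**Figure D4:**
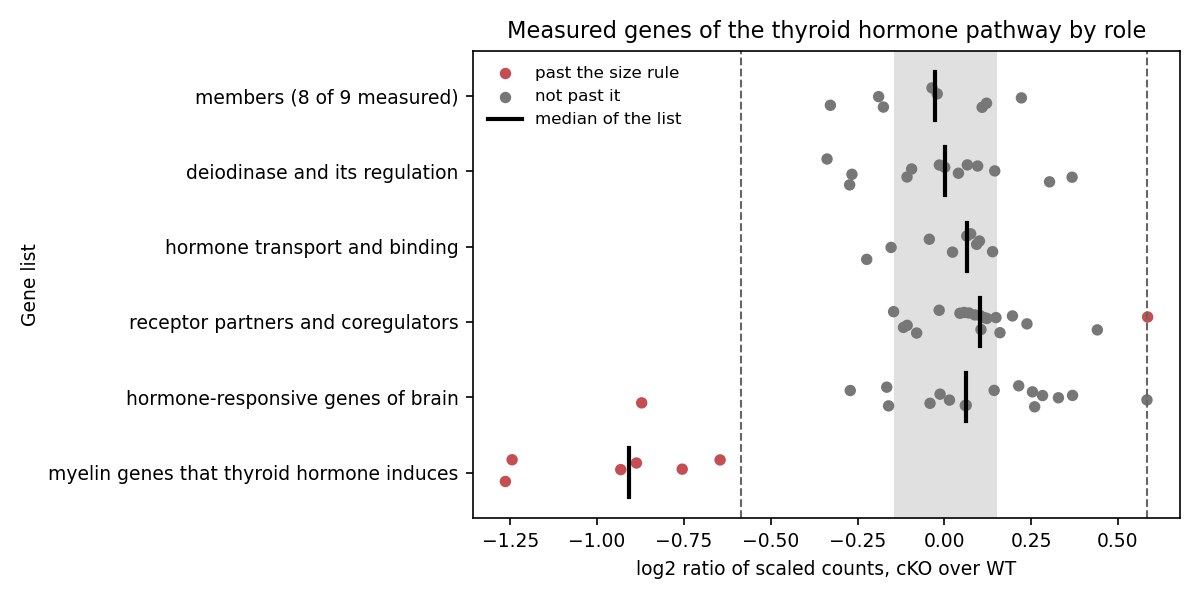
Log2 ratio of scaled counts, cKO over WT, for the measured genes of each list (points, spread vertically for legibility), with the list's median as a black bar, genes past the size rule in red, 1.5-fold limits as dashed lines and the middle 50% of all measured genes in grey. All 6 myelin genes are red and below the limit, while Cbr2 and Med1 are the only red points in the other lists.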

How the data were processed

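RNA-seq of 2 spinal cord libraries, WT and cKO, was used. The authors deposited estimated counts, TPM and FPKM per gene and transcript, per the file headers. CASAVA, Bowtie2 2.3.2 and the build GRCm38.p6 come from the submitters' processing notes. The read counter, its annotation release and whether it used strand: not given in the sources used here. Deposited counts are whole numbers but estimates: 99.6% of transcripts with under 50 expected counts in WT carried the next whole number above FPKM times length times a constant (tolerance 0.1). For genes with 1 transcript, values from 1.5 to 8.5 lay within 0.2 of an even number in 42.6% (WT) and 40.8% (cKO). Within 0.2 of an odd number lay 13.6% (WT) and 14.7% (cKO), and the rest were near neither. On this basis 1 fragment was taken as 2 counts, as an earlier analysis had done.

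Counts were scaled with TMM (edgeR 4.0.16, R 4.3.3), and a 0 was set to 3 fragments (6 counts). Intervals used scipy 1.17.1; code was tested on simulated data. The members and lists were chosen with earlier results of these data known. Named were the 9 members, their transcripts of at least 10% of counts, list genes past the size rule, the 3 most abundant of each list, and some genes set singly. Thra-202, Slco1c1-203, Slco1c1-206, Crym-202, Gm26512 and the transcripts of Med1 and Homer1 were added after their values were seen. So were Eefsec, Me1, Pdgfra, Ptprz1, Cspg4, C1ql1 and Lhfpl3. Annotation came from GENCODE M21, whose Thrb and Klf9 ends differ from the files'. Alternatives covered scaling, TPM with pseudocounts, filters, overlapping genes and rounding. Some genes that this rule names are not reported here.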

Additional observations from a re-analysis of the deposited data

How the results depend on the processing

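With 1 library per group no replicate could be left out, and no paired analysis was possible because each group has 1 library. No member met the size rule under any of the 8 settings of scaling, value, interval or filter. Over its settings the log2 ratio of Dio2 ranged from 0.07 to 0.14, Rxra from 0.22 to 0.30, Klf9 from -0.19 to -0.15 and Hr from -0.33 to -0.19. Thra (-0.02 to 0.02), Thrb (-0.18 to 0.02) and Crym (-0.04 to 0.03) changed sign, being above 0 on TPM with either pseudocount, as was the members' median (0.03 and 0.02, against -0.03). With intervals on counts as deposited, 5 members in place of 3 left out a ratio of 1, the added ones being Slco1c1 and Thrb, and with upper quartile scaling 4 did, the added one being Slco1c1. Med1 missed the limit, leaving 0 coregulators higher, on total counts alone (0.584) and on TPM with a pseudocount of 0.1 (0.236) or 1 (0.224). Among brain response genes 1 was higher, Homer1, with upper quartile scaling and on TPM with either pseudocount, and 1, Pcp2, with no filter; 2 were lower with no filter, Cbr2 and Bcl3, and 0 with the filter of 5 CPM. Over all genes 392 were higher and 544 lower; these became 190 and 306 with the filter of 5 CPM and 659 and 831 with none, and 354 were lower on TPM with a pseudocount of 1. Sums with genes that share exons gave -0.01 for Thra and 0.07 for Dio2. The unrounded alternative was not run for Thrb and Klf9, whose lengths in the files are unknown. Depth limits Dio3 and Crym most.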

Other observations

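Homer1, a synaptic scaffold gene on the list of brain response genes, lay just short of the size rule at a log2 ratio of 0.58 (interval 0.45 to 0.71). The largest difference among its transcripts of at least 10% of counts was in Homer1-203, which went from 213 counts in WT to 1682 in cKO, or from 14.5% (12.1% to 17.2%) to 59.2% (56.7% to 61.8%) of the gene's counts. Homer1-202 went from 40.4% to 17.4%, and Homer1-204, of 186 residues, from 29.9% to 15.6%. For Med1, transcript Med1-203 of 1575 residues had a log2 ratio of 0.80 (interval 0.62 to 0.97) and went from 67.0% to 77.6% of the counts. These divisions are the authors' estimate. Of measured genes with at least 2 transcripts of 10% or more, 43.7% had a share that moved by 10 points or more, with intervals apart. The size rule was met by 26.1% of measured transcripts. Gm26512, which shares 100 exon bases with Dio2 on the opposite strand, had 33 counts in WT and 17 in cKO.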
